A study of Mus musculus with 28 samples.

Results

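The chambers of the heart differ in their contractile and signalling genes, and 7 genes that mark atrium or ventricle were followed across 28 mouse hearts. The atrial genes were Myl4, Myl7, Sln and Bmp10, and the ventricular genes were Myl2, Myl3 and Irx4. Every probe set annotated to 1 of these genes alone was taken, which gave 11 probe sets of 7 genes out of 45037 probe sets naming 18193 genes. Each array held the RNA of frozen heart tissue from 1 animal, and the labels did not say whether atria were included in a sample. The animals formed 4 groups of 7. Untreated controls were compared with untreated animals of the strain del337TR, which is labelled as carrying a deletion in 337TR and stands in a series on resistance to thyroid hormone. The other 2 groups were controls and del337TR animals given WY14643, an activator of the nuclear receptor PPARalpha. The labels gave no dose, duration, age, sex or background strain, and nothing beyond the replicate numbers about how the animals were kept or handled.

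Myosin carries a pair of light chains on each head, an essential and a regulatory one, and each chamber uses its own. Myl4 is the atrial essential and Myl7 the atrial regulatory light chain, while Myl3 is the ventricular essential chain, shared with slow skeletal muscle, and Myl2 the ventricular regulatory chain. Sarcolipin, the product of Sln, is a small membrane protein that inhibits the calcium pump of the sarcoplasmic reticulum and in the mouse heart is found mainly in the atria. Bmp10 is a secreted ligand of the bone morphogenetic protein family that in the adult heart is made in the right atrium and signals through the receptor Acvrl1. Irx4 is a transcription factor of the ventricles. Thyroid hormone is known to act on several contractile and calcium-handling genes of the heart.

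The RefSeq tables for GRCm38.p6 place Myl4 on chromosome 11 (104546017 to 104587215) and Myl7 on the same chromosome (5896637 to 5898782). Sln lies on chromosome 9 (53850251 to 53853849), as does Myl3 (110763678 to 110769802). Bmp10 is on chromosome 6 (87428994 to 87434512), Myl2 on chromosome 5 (122092724 to 122113473) and Irx4 on chromosome 13 (73259589 to 73269622). The 250 bases before an annotated start are shown for 5 members, because 3 of the atrial genes turned out to rise and fall together from heart to heart and the question is which short motifs their promoters hold. Capitals mark matches on either strand to short motifs of cardiac factors. AGATAA is a site for the factor Gata4 and its relatives. AAGTG is a site for Nkx2-5. AGGTCA is what a single nuclear receptor binds. AGGTGT is a site for T-box factors. The MEF2 site and the CArG box, bound by Srf, were searched by their usual letters. The stretches are chr11:104550413-104550662 (plus strand) for Myl4, chr11:5898783-5899032 (minus strand) for Myl7, chr6:87428744-87428993 (plus strand) for Bmp10, chr5:122092474-122092723 (plus strand) for Myl2 and chr9:110763428-110763677 (plus strand) for Myl3.
Myl4: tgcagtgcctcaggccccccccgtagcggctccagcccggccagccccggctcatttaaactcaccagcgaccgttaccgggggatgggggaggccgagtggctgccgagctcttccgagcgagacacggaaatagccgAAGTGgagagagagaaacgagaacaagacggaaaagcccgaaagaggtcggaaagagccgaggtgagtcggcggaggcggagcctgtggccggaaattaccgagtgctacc
Myl7: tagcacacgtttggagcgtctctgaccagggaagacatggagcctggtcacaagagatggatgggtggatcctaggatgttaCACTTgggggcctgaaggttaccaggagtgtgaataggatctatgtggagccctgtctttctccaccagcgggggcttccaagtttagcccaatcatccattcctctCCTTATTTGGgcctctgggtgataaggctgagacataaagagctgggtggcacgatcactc
Bmp10: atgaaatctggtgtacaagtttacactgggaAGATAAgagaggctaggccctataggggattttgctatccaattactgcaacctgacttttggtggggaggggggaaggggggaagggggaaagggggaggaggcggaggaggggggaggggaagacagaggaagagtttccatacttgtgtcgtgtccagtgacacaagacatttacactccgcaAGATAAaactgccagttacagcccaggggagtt
Myl2: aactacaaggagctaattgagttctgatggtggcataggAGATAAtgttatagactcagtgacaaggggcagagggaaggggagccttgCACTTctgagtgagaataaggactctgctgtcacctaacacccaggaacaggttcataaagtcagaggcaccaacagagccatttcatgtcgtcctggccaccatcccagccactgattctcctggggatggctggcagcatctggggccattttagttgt
Myl3: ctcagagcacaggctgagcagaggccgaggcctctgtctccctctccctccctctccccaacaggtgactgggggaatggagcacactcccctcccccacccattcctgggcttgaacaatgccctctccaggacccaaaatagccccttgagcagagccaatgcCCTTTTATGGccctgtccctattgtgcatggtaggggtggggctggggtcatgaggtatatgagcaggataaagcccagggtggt

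Myl4 and Myl7, the atrial light chains, each held AAGTG, with 106 bases between the motif and the start in Myl4 and 163 in Myl7. AAGTG was also in the stretch of Myl2 and is in 40.7% of the 32851 promoters of the table. Myl7 held a CArG box 51 bases before its start and Myl3, of the ventricle, held one 75 bases before its start, against 1.47% of all promoters. Bmp10 held AGATAA at 2 places and Myl2 at 1 place, against 9.99% of all promoters. Of the nuclear receptor motifs, AGGTCA was found only before a second annotated start of Myl2, where 14.0% of all promoters hold it. No searched member held a direct repeat of AGGTCA with a gap of 1 base, the kind that PPAR receptors bind (0.0335% of all promoters). None held one with a gap of 4 bases, the kind that thyroid hormone receptors bind (0.0152%). None held AGGTGT (11.8%) or the MEF2 site (2.92%). Irx4 held none of the motifs in this window. The motifs therefore did not separate the searched atrial from the ventricular members in these windows, which are short and leave out more distant sequence. Sln had no promoter entry and was not searched.

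The signals are hybridisation intensities on a linear scale on which the array medians ran from 60.1 to 77.8 and the highest value was 26183.2. The muscle identity of the tissue was plain on every array, since Myl3 and Myl2 had the second and the fifth highest mean signal of all probe sets, and summed signals of 12 genes of all cardiomyocytes lay between 129850 and 209190. The ratio of the 3′ to the 5′ actin control probe sets, a sign of RNA integrity, was 1.25 ± 0.119 (SD, n = 7) in untreated controls, 1.29 ± 0.081 in untreated del337TR, 1.39 ± 0.209 in treated controls and 1.23 ± 0.094 in treated del337TR. Xist and Eif2s3y read 10 of the hearts as female, with 2 of 7 in untreated controls, 4 in untreated del337TR, 3 in treated controls and 1 in treated del337TR.

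Myl4 was the brightest of the atrial genes and was above the array median on 28 of 28 arrays. Its signal in untreated controls ran from 106.9 over a median of 1025.1 to 9488.6. In untreated del337TR it ran from 707.2 over 4642.7 to 13859.6. In treated controls it ran from 134.4 over 1761.7 to 8124.7, and in treated del337TR from 165.7 over 4554.1 to 14212.5. Each group spanned a wide range, and the 4 ranges overlapped. The lowest untreated del337TR heart stood above the lowest heart of each other group. The highest heart stood 133-fold above the lowest. The geometric means fell in the order untreated del337TR (4178), treated del337TR (2761), treated controls (1466) and untreated controls (1229), and no neighbours in this order differed beyond their spread, since 1 SD within a group was 2.07 on the log2 scale, a factor of 4.20.

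The regulatory chain Myl7 varied more. It lay between 4.8 and 6647.3 in untreated controls with a median of 299.5, and between 224.8 and 7245.9 in untreated del337TR with a median of 2424.3. Treated controls ran from 43.4 over 1259.2 to 3998.5, and treated del337TR from 5.6 over 2044.6 to 7967.7. Myl7 was above the array median on 24 of 28 arrays, and the remaining 4 were 2 untreated controls, 1 treated control and 1 treated del337TR heart. The signals of those 4 hearts are at the dim end of the array, so the full size of the span is not measured there.

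Sarcolipin was the most variable member. Its brighter probe set ran from 4.6 over 435.8 to 6291.2 in untreated controls and from 269.8 over 2410.6 to 10883.2 in untreated del337TR. It ran from 4.3 over 529.4 to 5009.5 in treated controls and from 11.7 over 2520.9 to 11151.0 in treated del337TR. The 4 hearts with signals from 4.3 to 11.7 were 2 untreated controls, 1 treated control and 1 treated del337TR heart, and each of these 3 groups also held hearts at 5009.5 or more. Hearts with sarcolipin at the floor of the array and hearts with a bright signal were thus found in the same group, except in untreated del337TR, whose lowest heart was at 269.8. In whole tissue of this kind, fewer atrial cells and less RNA per atrial cell cannot be told apart.

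Bmp10 behaved unlike the other atrial genes. It was above the array median on 4 of 28 arrays. Signals ran from 7.1 over 18.2 to 95.6 in untreated controls, from 12.2 over 17.2 to 85.4 in untreated del337TR, from 6.2 over 18.0 to 29.5 in treated controls and from 11.2 over 18.3 to 176.5 in treated del337TR. The medians of all 4 groups lay between 17.2 and 18.3, and the spread came from 6 hearts above 50, of which 2 were untreated controls, 2 untreated del337TR and 2 treated del337TR. Their signals were 95.6 and 58.7, 85.4 and 55.7, and 176.5 and 118.2. The untreated control with the highest Bmp10 of its group, replicate 1, had the lowest Myl4 of all 28 hearts, at 106.9.

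**Figure D1:**
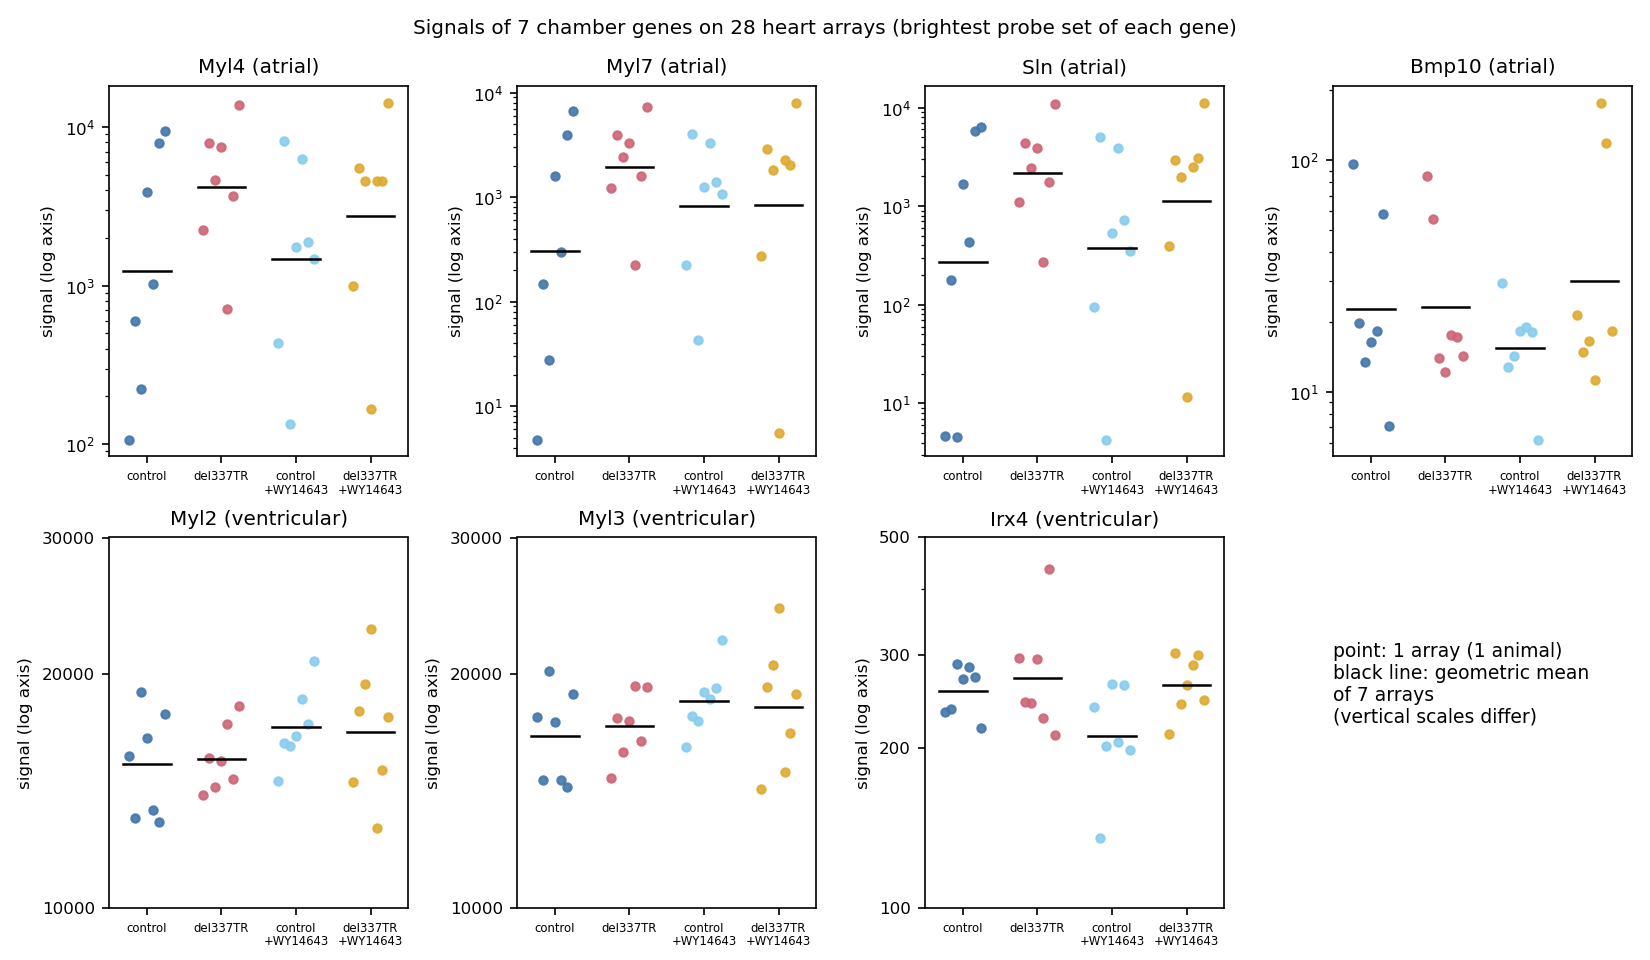
Signal of the brightest probe set of each chamber gene (log axis, vertical scales differ) in the 4 groups, with 1 point per heart and a black line at the geometric mean of 7 hearts. Myl4, Myl7 and Sln spread widely in each group. Their lowest signals were 106.9, 4.8 and 4.3, but 707.2, 224.8 and 269.8 in untreated del337TR. Myl2 and Myl3 stay between 12663.4 and 24327.5.

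The ventricular light chains were among the brightest probe sets of the array and spanned a narrow range of signal. Myl2 ran from 12888.7 over 15692.3 to 18967.8 in untreated controls and from 13968 over 15439.5 to 18214.3 in untreated del337TR. It ran from 14588 over 16637.3 to 20823.6 in treated controls and from 12663.4 over 17630.2 to 22900.4 in treated del337TR. The highest of all 28 hearts was thus 1.81-fold above the lowest, and the ranges of the 4 groups overlapped. The order of the geometric means was treated controls (17100), treated del337TR (16870), untreated del337TR (15570) and untreated controls (15310), with neighbours closer than the 1 SD of 0.21 on the log2 scale. The signals of Myl2 and of Myl3, which reached 24327.5, lie near the highest value of any array, 26183.2, and whether the signal still tracks the amount of RNA there was not tested. The narrow spans and intervals given for both chains are therefore those of the signal.

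Myl3 kept the same order of groups. Its brightest probe set ran from 14309.9 over 17380.2 to 20216.6 in untreated controls and from 14693.4 over 17392.8 to 19322.9 in untreated del337TR. It ran from 16108.1 over 18560.2 to 22117.6 in treated controls and from 14234 over 18838.5 to 24327.5 in treated del337TR. The remaining Myl3 probe sets ran from 11669.6 to 21105.2 and from 12189.3 to 20341.7 over all hearts, and followed the brightest one with a Pearson r of 0.952 and 0.982 over 28 arrays. The names of the brightest and of the first of these other Myl3 probe sets end in _s_at and _x_at, which marks designs that can also bind related transcripts.

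Irx4, the ventricular transcription factor, had a moderate signal that was above the array median on all 28 arrays. It ran from 218.5 over 269.8 to 288.2 in untreated controls and from 211.8 over 244.3 to 435.7 in untreated del337TR. Under WY14643 it ran from 135.7 over 205.5 to 264.6 in controls and from 213.2 over 263.1 to 303.0 in del337TR. Treated controls held the 4 lowest of all 28 values, with all 7 below the median of untreated controls, although the ranges overlapped. The 435.7 of replicate 6 of untreated del337TR was the highest of all hearts and stood apart from the next at 303.0.

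Of the 2 further atrial probe sets, the second one of Myl4 stayed between 121.0 and 193.8 on all arrays and followed the brighter one with an r of only 0.113. The second Sln probe set ran from 10.5 to 114.3 and was above the array median on 2 of 28 arrays, with an r of 0.281. The values of Myl4 and Sln given here therefore rest on 1 probe set each, and the probe sets of these genes follow each other only weakly over the arrays. In the 5 comparisons given below, the second Sln probe set had the sign of the brighter one, with 0.88 ± 0.47 (SE) for untreated del337TR against control. The second Myl4 probe set differed by -0.0012 ± 0.11 there.

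The within-group spread put 3 of the 4 atrial genes at the edge of the whole array. The residual SD on the log2 scale was 2.07 for Myl4, 2.95 for Myl7 and 3.34 for Sln. Among the 4504 probe sets of the same brightness decile, 1 was as wide as Myl7, counting Myl7 itself, 2 were as wide as Myl4 and 1 as wide as Sln. Over all 45037 probe sets, 36 were as wide as Myl4, 6 as wide as Myl7 and 3 as wide as Sln. The medians of the deciles concerned were 0.162 for Myl4 and Myl7 and 0.201 for Sln. Bmp10 had a residual SD of 1.21, at percentile 85.5 of its own dim decile, where the median was 1.01.

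The ventricular genes lay within the bulk of their deciles. The residual SD was 0.212 for Myl2 (percentile 76.0) and 0.196 for Myl3 (percentile 70.2), both above the decile median of 0.162, and 0.27 for Irx4 (percentile 57.6, median 0.254). The share of a gene's variance that lay between the 4 groups was 12.0% for Myl4, 10.7% for Myl7, 13.3% for Sln, 8.64% for Bmp10, 11.2% for Myl2, 10.1% for Myl3 and 24.5% for Irx4. For every member most of the variation in signal was therefore among arrays of the same strain and treatment. The signals of Myl2 and Myl3 moved with a property of the array, given below, so their spread is not shown to be one among hearts. Group means take up some share even where groups do not differ, and that share was not computed.

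**Figure D2:**
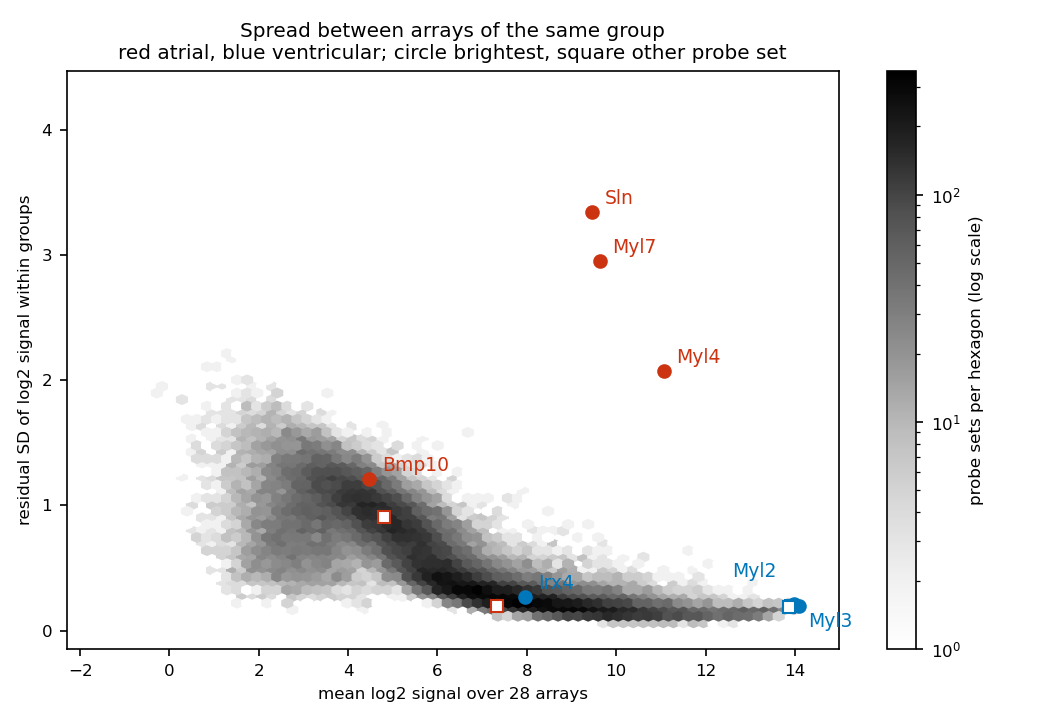
Residual SD of the log2 signal within groups against the mean log2 signal over 28 arrays, with all 45037 probe sets as grey hexagons (darker means more probe sets) and the 11 chamber probe sets as coloured points. Sln, Myl7 and Myl4 lie far above the grey cloud at 3.34, 2.95 and 2.07, and the ventricular genes and the second probe set of Myl4 lie within it.

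The atrial light chains and sarcolipin rose and fell together. Over 28 arrays Myl4 and Myl7 had a Pearson r of 0.967 and a Spearman rho of 0.993, and Myl4 and Sln 0.981 and 0.990. Myl7 and Sln had 0.960 and 0.986. Each of these permutation p-values, for r and for rho, was 1e-05, the smallest that 100000 resamples can give, and 5.25e-05 after Benjamini-Hochberg adjustment over the 21 pairs of members. Without the 2 arrays farthest from the median of the first gene, r was 0.963, 0.975 and 0.964. The 7 hearts with the lowest Myl4 were also the 7 lowest for Myl7 and for Sln, and of the 7 highest, 6 were shared with Myl7 and 7 with Sln.

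The same held inside each group. The r of Myl4 and Myl7 was 0.994 in untreated controls, 0.992 in untreated del337TR, 0.986 in treated controls and 0.990 in treated del337TR, with exact permutation p-values of at most 0.000794 (n = 7 each). For Myl4 and Sln it was 0.975, 0.996, 0.988 and 0.992, with exact permutation p-values of at most 0.00159 (n = 7 each). Over all hearts, Myl7 rose by 1.37 and Sln by 1.60 on the log2 scale for each doubling of Myl4. The signal thus fell more steeply in both than in Myl4. These slopes take in the hearts in which Myl7 and Sln were at the dim end of the array. How far those hearts set the slopes was not tested.

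Bmp10 shared none of this. Its r with Myl4 was -0.001 (rho -0.082), with Myl7 -0.031 (rho -0.068) and with Sln 0.039 (rho 0.008), and none of these 3 pairs passed, with adjusted permutation p-values for r of 0.997 each. Of the 7 hearts lowest for Myl4, 2 were among the 7 lowest for Bmp10, and of the 7 highest again 2. Bmp10 was above the array median on only 4 of 28 arrays, so these values cannot show whether its transcript follows Myl4. The signal of Bmp10 ran against those of the ventricular light chains, under the same limit. Its r was -0.595 with Myl2 (rho -0.612, adjusted permutation p 0.00286) and -0.529 with Myl3 (rho -0.57, adjusted permutation p 0.0125). In each group of 7 the sign was negative, from -0.395 to -0.815 for Myl2 and from -0.373 to -0.801 for Myl3, but none passed after adjustment over the 21 pairs of its group (lowest adjusted exact permutation p 0.055, n = 7).

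Myl2 and Myl3 also went together, with an r of 0.965 and a rho of 0.945 (adjusted permutation p 5.25e-05), and within groups r was 0.931 to 0.991 (exact permutation p of at most 0.00595, n = 7 each). This pair moved with a property of the array. The signal at percentile 99 of an array ran from 5698.6 to 7853, and its r over the 28 arrays was 0.858 with Myl2 and 0.895 with Myl3, against -0.256 with Myl4 and -0.45 with Bmp10, given as a description. After quantile normalization, which gives all arrays the same distribution, the r of Myl2 and Myl3 was 0.023 and that of Bmp10 and Myl3 was -0.142, and neither passed. That of Bmp10 and Myl2 was -0.586 and still passed. The residual SD then fell to 0.059 for Myl2 and 0.037 for Myl3. The remaining pairs, which were all pairs of an atrial light chain or Sln with a ventricular gene and the pairs with Irx4, had an r between -0.261 and 0.291 and none passed (lowest adjusted permutation p 0.408).

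**Figure D3:**
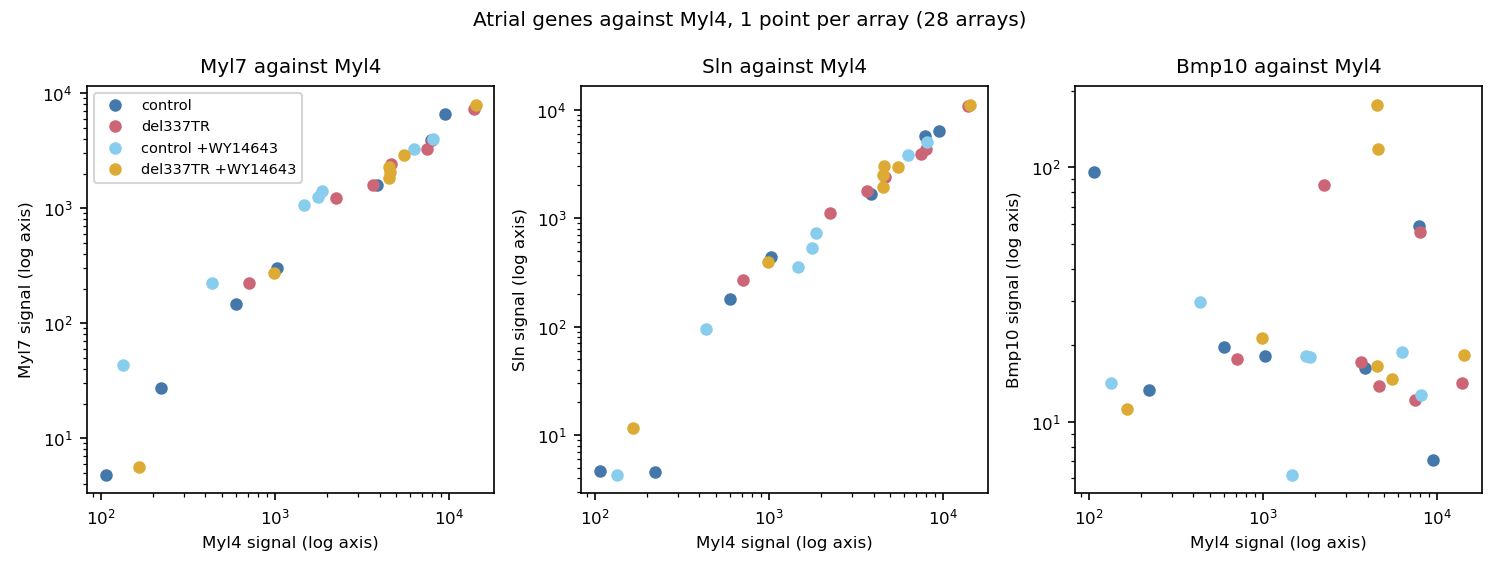
Signals of Myl7, Sln and Bmp10 (vertical, log axes) against Myl4 (horizontal, log axis), with 1 point per heart, 28 in all, coloured by group. Myl7 and Sln follow Myl4 closely in all groups (r 0.967 and 0.981). The signal of Bmp10, dim on most arrays, does not (r -0.001).

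The genes most like each member, with the other members kept in the search, were ranked by Pearson r of group-centred log2 signals over 28 arrays. This is a description with no p, and such arrays share their scaling. Nearest to Myl4 after Sln and Myl7 (both 0.979) were Dkk3 (0.937), a secreted glycoprotein, Cacna2d2 (0.817), a calcium channel subunit, and Mybphl (0.813), a myosin-binding protein of atrial muscle. Dkk3 ran from 75.3 to 2814.7 and Mybphl from 46.2 to 2465.9 over the hearts. Myl7 had Dkk3 (0.891), Fmod (0.818), a small proteoglycan of the matrix, and Atl3 (0.787), a shaping protein of the endoplasmic reticulum, behind the same pair. Sln had Dkk3 (0.887), Fmod (0.855) and Comp (0.791), a matrix protein of tendon and cartilage.

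The neighbours of Bmp10 were weaker, with Myc, a growth-related transcription factor, at 0.679, Fam219a at 0.662, Alox12e and Ttc3 at 0.653 and Gdf9 at 0.651. Those of Myl2 were Tpt1 and Mb (0.974 each), Tpm1 (0.964), Cox6c (0.962) and Myl3 (0.962). Those of Myl3 were Tpt1 (0.989), Atp5g3 and Tnnc1 (0.982 each), Mb (0.98) and Cox7a2 (0.975). Myoglobin, tropomyosin, troponin C and the subunits of cytochrome oxidase and ATP synthase are abundant in all heart muscle. Irx4 had Nr3c1, the glucocorticoid receptor, at 0.797, then Hlx (0.742), Car8 (0.737), Adcy4 (0.694) and Abcb1a (0.69).

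Of the other genes known from atria, 9 of the 18 measured had an r of at least 0.5 with Myl4, with a median of 0.50 over the list, where 1.75% of 18192 genes reached 0.5. They were Dkk3, Mybphl, Tmem163 (0.754), Hamp (0.696), Stard10 (0.658), Fgf12 (0.653), Cacna1g (0.64), Bmp5 (0.585) and Tbx5 (0.575). Tmem163 ran from 6.5 to 698.3 and Fgf12 from 59.5 to 1146.3. Nppa, the atrial natriuretic peptide, which ventricles under load also make, had an r of 0.39 and rose by 0.13 on the log2 scale for each doubling of Myl4. Gja5, a connexin of atria and conduction fibres, had -0.371 and stayed between 3.2 and 9.9, near the floor of the array.

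The counts of the other lists are to be read against the same 1.75% of all genes. No gene of the 16 other ventricular genes reached 0.5, nor did any of the 12 cardiomyocyte genes of all chambers or the 12 chamber transcription factors. Of 12 pacemaker and conduction genes, Shox2 (0.75), a transcription factor of the sinus node, and Cpne5 (0.583) did. Of 13 other light chains and their kinases, Myl9 (0.804), the regulatory chain of smooth muscle, ran from 419.4 to 1686.6 with Myl4. Of 9 partners of sarcolipin, only Casq1 (0.548), a calcium store protein, did, while the calcium pump Atp2a2 had -0.152 and phospholamban, Pln, -0.32. Of 18 genes of the Bmp10 pathway, the receptor Acvrl1 (0.59) and the inhibitor Smad7 (0.563) followed Myl4. Smad1 (0.535) followed Bmp10, where 0.841% of all genes had an r of at least 0.5 with it. Smad5 (-0.553) and Tcap (-0.552) ran against Bmp10, where 1.32% of all genes had an r of -0.5 or less. With Myl2, Tcap had an r of 0.747, Smad1 of -0.586 and Smad5 of 0.253. Of the 12 cardiomyocyte genes, 6 also had an r of -0.5 or less with Bmp10, so this was not particular to its pathway. Bmp10 was above the array median on only 4 of 28 arrays, which limits these values. All 12 cardiomyocyte genes reached 0.5 with Myl2, against 3.02% of all genes.

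Markers of other cells were read beside the atrial genes. Of the 7 endocardial and endothelial markers, 2 reached 0.5 with Myl4, where 1.75% of all genes did. Their summed signal had an r of 0.478 with Myl4 and ran from 3079.9 to 4110.8 in untreated controls, 3118 to 5526.9 in untreated del337TR, 2190.5 to 3985.4 in treated controls and 2822.3 to 4640 in treated del337TR. The counts were 1 of 7 for fibroblasts, 1 of 7 for smooth muscle and 1 of 8 for skeletal muscle. They were 0 of 10 for epicardium and mesothelium, 0 of 7 for lung, 0 of 6 for adipocytes, 0 of 7 for thymus and lymphocytes, 0 of 3 for blood and 0 of 5 for nerve cells. Among the smooth muscle markers, Rgs5 ran against Myl4 (-0.532), where 0.951% of all genes had an r of -0.5 or less. The summed lung markers had an r of 0.361 and the summed fibroblast markers 0.305. The part of these cells in the spread of the atrial genes was not tested.

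**Figure D4:**
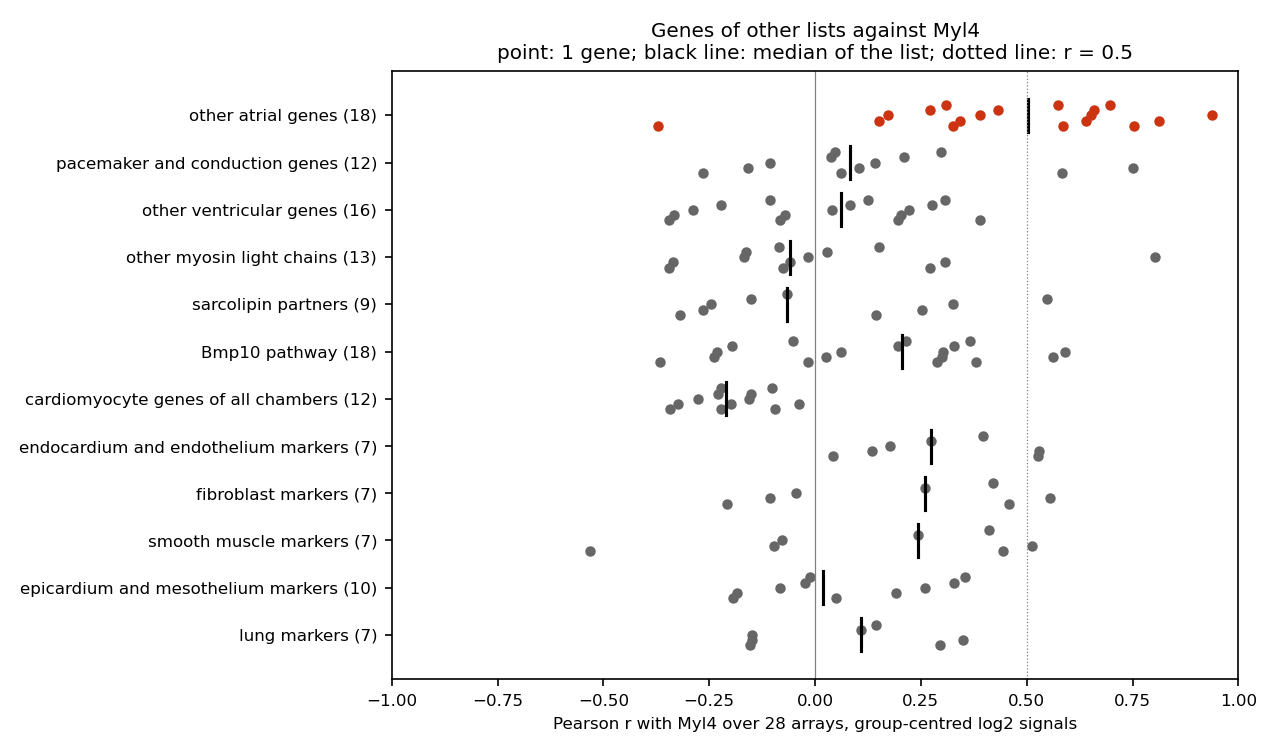
Pearson r with Myl4 over 28 arrays on group-centred log2 signals (horizontal axis) for each gene of 12 lists, with the number of genes in brackets, a black line at the list's median and a dotted line at 0.5. The other atrial genes have a median of 0.50 and 9 of 18 at 0.5 or more, while no other ventricular gene reaches 0.5.

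The first comparison asked how the strain differed from control without treatment. The atrial genes had higher means in del337TR, but not beyond the spread between hearts. Myl4 was 1.77 ± 1.07 higher on the log2 scale (SE, limma, n = 7 a group), with a 95% interval from -0.43 to 3.97. Myl7 was 2.67 ± 1.52 higher (-0.47 to 5.80) and Sln 3.02 ± 1.73 higher (-0.53 to 6.57), and for each of the 3 genes 6 of 7 del337TR hearts lay above the control median. With the probe sets of a gene averaged, the difference was 0.88 ± 0.54 for Myl4 and 1.95 ± 0.93 for Sln. The unadjusted limma p was then 0.116 and 0.0461, and neither passed after adjustment. Without replicate 1 of the untreated controls the difference of Myl7 was 1.67. Since the 3 genes move together, they count as 1 pattern and not as 3. Bmp10 differed by 0.02 ± 0.63. Myl2 differed by 0.02 ± 0.12, Myl3 by 0.04 ± 0.11 and Irx4 by 0.08 ± 0.15, and the interval for Myl2 took in folds from 0.857 to 1.21.

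By limma, 0 of the 11 chamber probe sets passed at an adjusted p of 0.05 in this comparison (adjusted p 0.999 each), where 1 of 45037 passed, which is 0.00222%. At an unadjusted p under 0.05 the count was again 0 of 11, where 4.01% of all probe sets reached that level. Among the other atrial genes 13 of 18 had higher means and none passed, with Bmp5 (0.41 ± 0.18, limma adjusted p 0.999) having the smallest p. Of the other ventricular genes 13 of 16 had higher means, against 50.3% of all genes, and none passed. The intervals of the atrial genes are wide, and that of Myl4 leaves room for folds from 0.741 to 15.6.

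WY14643 in controls left the chamber genes within the spread between hearts. Myl4 differed by 0.25 ± 1.07, Myl7 by 1.43 ± 1.52, Sln by 0.49 ± 1.73 and Bmp10 by -0.56 ± 0.63. Myl2 was 0.16 ± 0.12 and Myl3 0.15 ± 0.11 higher, with 6 of 7 treated hearts above the untreated median for each, and Irx4 was lower with a value of -0.28 ± 0.15 (95% interval -0.59 to 0.02). No treated heart of 7 had Irx4 above the untreated median. By limma 0 of 11 passed, where 0% of all probe sets did (adjusted p 0.753 for Irx4), and 0 of 11 had an unadjusted p under 0.05, where 6.75% did. All 12 cardiomyocyte genes had higher means, where 44.9% of all genes did, with a median of 0.13 and 0 past the threshold. These genes all had an r of at least 0.5 with Myl2, whose signal moved with the percentile 99 signal of the array. They therefore do not count as 12 separate results, and the count after quantile normalization was not taken. Of the other atrial genes, 14 of 18 had lower means, with Nppa at -0.70 ± 0.30 (adjusted p 0.727), and 0 passed. The Nppa value takes in replicates 1, 4, 6 and 7 of the treated controls, whose signals from 2837.7 to 4703.4 were the lowest of all hearts.

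WY14643 in del337TR gave the same outcome. Myl4 differed by -0.60 ± 1.07, Myl7 by -1.19 ± 1.52, Sln by -0.96 ± 1.73 and Bmp10 by 0.39 ± 0.63. Myl2 differed by 0.12 ± 0.12, Myl3 by 0.08 ± 0.11 and Irx4 by -0.05 ± 0.15. By limma 0 of 11 passed, where 0% of all probe sets did, and 0 of 11 had an unadjusted p under 0.05, where 5.78% did. In the Bmp10 pathway 14 of 18 genes had lower means, with Id3, a target of the pathway, at -0.56 ± 0.15, Smad5 at -0.31 ± 0.10 and the receptor Acvr1 at -0.37 ± 0.12, and none passed (adjusted p 0.767 each). Of all genes, 49.0% had higher means. The same list had 14 of 18 lower means under WY14643 in controls. All 12 cardiomyocyte genes had higher means in del337TR as in controls. Those 12 genes move with Myl2 and again do not count as 12 separate results.

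Between the strains under WY14643, Irx4 had the smallest p of the chamber genes. It was 0.32 ± 0.15 higher in del337TR on the log2 scale (95% interval 0.01 to 0.62, a fold of 1.01 to 1.54), and 7 of 7 treated del337TR hearts were above the median of treated controls. This was the 1 of 11 chamber probe sets with an unadjusted p under 0.05, where 8.86% of all probe sets reached that level, and it did not pass (limma adjusted p 0.545). Without replicate 2 of the treated controls the difference was 0.21. By limma 0 of 11 passed, where 0% of all probe sets did. Myl4 differed by 0.91 ± 1.07, Myl7 by 0.04 ± 1.52, Sln by 1.58 ± 1.73 and Bmp10 by 0.97 ± 0.63. Myl2 differed by -0.02 ± 0.12 and Myl3 by -0.03 ± 0.11.

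Other genes of the chambers had smaller p in that comparison but did not pass either. Nppa was 0.89 ± 0.30 and Myh7, the slow myosin heavy chain, 1.14 ± 0.38 higher in treated del337TR (adjusted p 0.428 each). For Nppa the treated controls were split. Replicates 1, 4, 6 and 7 ran from 2837.7 to 4703.4, and replicates 2, 3 and 5 from 11891.8 to 14345.3. Treated del337TR ran from 7564.1 to 18238.7. Tbx20, a chamber transcription factor, was 0.39 ± 0.12 higher (adjusted p 0.405). The interval for the Myl2 signal took in folds from 0.831 to 1.17, while that for Myl4 took in 0.41 to 8.65.

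The effect of WY14643 in del337TR less its effect in controls was -0.85 ± 1.51 for Myl4, -2.62 ± 2.15 for Myl7, -1.44 ± 2.44 for Sln and 0.95 ± 0.89 for Bmp10. It was -0.04 ± 0.17 for Myl2, -0.07 ± 0.16 for Myl3 and 0.23 ± 0.21 for Irx4, whose treated controls alone stood low. By limma 0 of 11 passed, where 0% of all probe sets did, and 0 of 11 had an unadjusted p under 0.05, where 4.9% did. All 5 comparisons draw on the same 4 groups and share their hearts.

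**Figure D5:**
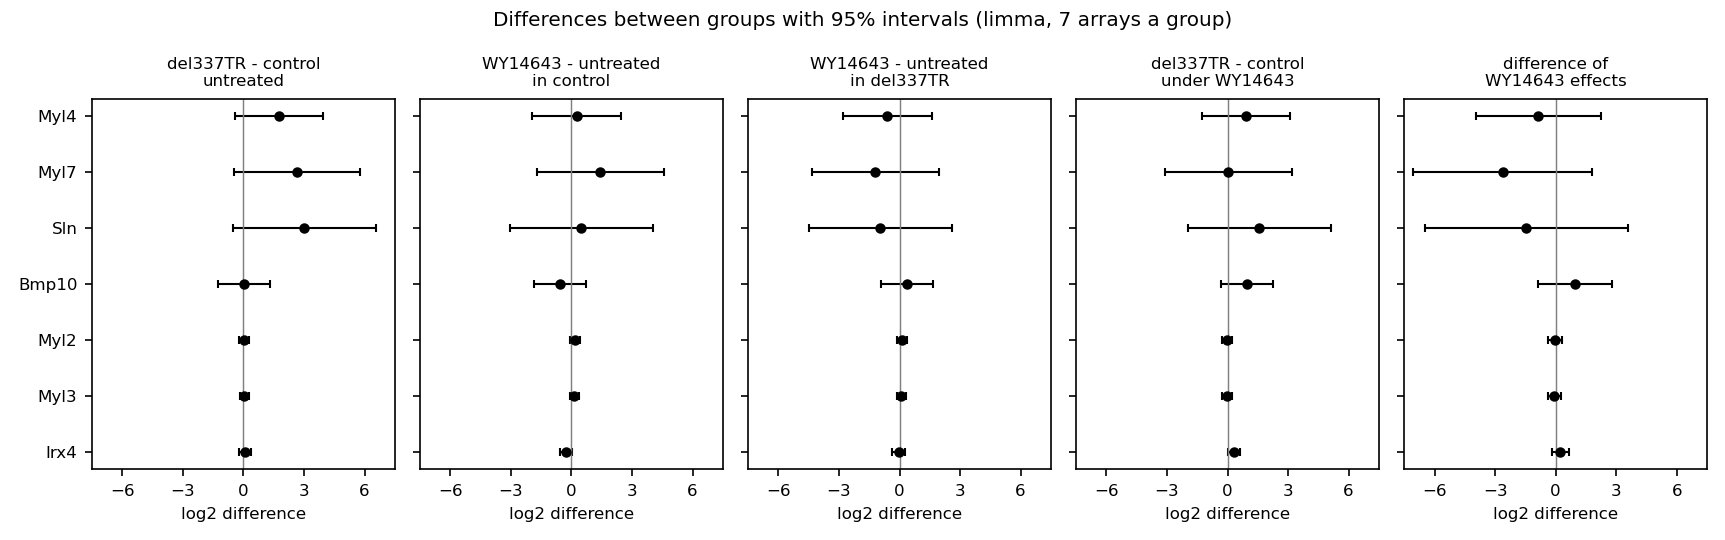
Log2 differences between groups (points) with 95% intervals (bars) from limma for the 7 chamber genes in the 5 comparisons, 7 arrays a group, with a grey line at 0. The intervals of Myl4, Myl7 and Sln span several log2 units, those of Myl2 and Myl3 lie within 0.5 of 0, and only Irx4 under WY14643 has an interval that leaves out 0.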

How the data were processed

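Per the labels' protocols, biotinylated cRNA was made from total RNA of mouse hearts and hybridised, 1 sample per array. The deposited intensity values were linear signals, 1 per probe set and array. Although the submitters' processing notes name RMA, the mean signal with 2% trimmed at either end was 250.0 on all 28 arrays, so the values were taken as globally scaled, and no further normalization was done. Depth does not apply, and 7 arrays a group limit the precision.

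Control probe sets (64) were left out. Values below 0.1 (3 of them) were set to 0.1 before log2. limma 3.58.1 in R 4.3.3 fitted 4 group means to 28 arrays and 45037 probe sets, two-sided, with Benjamini-Hochberg adjustment in each of 5 contrasts and a threshold of 0.05. The brightest probe set on average stood for a gene. Symbols came from the platform annotation, and matching genes and promoters from RefSeq (6 of the 7 members had a promoter entry). Correlations used Python 3.11.15 and scipy 1.17.1. The script was tested on simulated data. P-values measure the spread between these hearts, since the labels do not say how the animals relate.

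All member probe sets were named, with the 5 genes most like each member among probe sets brighter than the median, and up to 3 genes of smallest p per list and contrast. Genes of a list named for their correlation, Nppa, Gja5, Atp2a2 and Pln were chosen after their values were seen. The members and the 20 lists were chosen with earlier results of these data known, so their counts support nothing beyond these arrays. Same-numbered hearts did not deviate together, so numbers were not used as pairs.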

Additional observations from a re-analysis of the deposited data

Results flagged for a closer look

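Irx4 in replicate 2 of the treated controls had a signal of 135.7, the lowest of all 28 hearts, and was set off from the other 6 of its group by 0.571 of the group's whole range on the log2 scale, where 0.568 is the critical value for 7 samples. On the linear scale the value was 0.489, below the critical value. It was the only such array among 44 groups of 7 searched (11 probe sets in 4 groups), and chance alone sets off about 1 in 20 groups. Myl4 on this array was 8124.7, Myl7 3998.5 and Sln 5009.5, each the highest of its group, while Myl2 was 16323.6 and Myl3 17670.1, each within the range of its group.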

How the results depend on the processing

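The count of 0 of 11 chamber probe sets past the threshold held in all 5 comparisons under every setting run, and 6 of 21 pairs of members stayed correlated under every setting but quantile normalization (4, with Myl2 and Myl3 at 0.023 and Bmp10 and Myl3 at -0.142 lost). With a replicate block, 0 chamber probe sets passed and Myl4 was 1.77 higher in untreated del337TR. The correlation check over the array gave no sign of pairing by number, but it did not look at the chamber genes alone. Of the log2 differences of single genes, 326 kept their sign and 12 turned, all small beside their errors, and the cause was not tested. Turned values were, for Myl7 in strain under WY14643, -0.037 with arrays centred on their medians and -0.298 with a sex covariate. For Bmp10 in untreated strain they were -0.016 with 16 added before log2 and -0.015 with array weights, for Myl2 in untreated strain -0.006 with quantile normalization and -0.021 with the sex covariate, and for Myl3 with WY14643 in del337TR -0.01 with quantile normalization. With the sex covariate they were 0.026 for Myl2 and 0.01 for Myl3 in strain under WY14643, 0.046 and 0.005 in the difference of effects, and 0.014 for Irx4 with WY14643 in del337TR. Leaving out 1 array in turn turned 44 of 980 values. The ranges were, for WY14643 in controls, -0.333 to 0.829 for Myl4 and -0.492 to 1.561 for Sln. For WY14643 in del337TR they were -1.025 to 0.079 for Myl4, -1.735 to 0.011 for Myl7, -1.511 to 0.139 for Sln, -0.04 to 0.7 for Bmp10 and -0.107 to 0.066 for Irx4. For strain under WY14643 they were -0.663 to 1.249 for Myl7, -0.093 to 0.049 for Myl2 and -0.098 to 0.031 for Myl3. For untreated strain they were -0.293 to 0.367 for Bmp10, -0.017 to 0.076 for Myl2 and -0.03 to 0.143 for Irx4, and for the difference of effects -0.118 to 0.025 for Myl2. The ranges of the atrial genes and Irx4 that kept their sign were, for untreated strain, 1.179 to 2.257 for Myl4, 1.668 to 3.408 for Myl7 (both lowest without control replicate 1) and 2.043 to 3.779 for Sln. For strain under WY14643 they were 0.339 to 1.59 for Myl4 and 0.501 to 2.674 for Sln (lowest without treated control replicate 3, highest without treated del337TR replicate 4), 0.542 to 1.205 for Bmp10 and 0.211 to 0.372 for Irx4. For WY14643 in controls they were 0.431 to 2.17 for Myl7, -0.84 to -0.215 for Bmp10 and -0.336 to -0.175 for Irx4, and for the difference of effects -1.427 to -0.176 for Myl4, -3.364 to -1.417 for Myl7, -2.52 to -0.347 for Sln, 0.52 to 1.26 for Bmp10 and 0.128 to 0.348 for Irx4. Fitting only the groups compared gives no value for the difference of effects. Adding 16 before log2, quantile normalization and median centring were added for the spread after the data were seen, as was leaving out the 2 farthest arrays from correlations. Averaging the probe sets of a gene lowered the untreated strain difference to 0.882 for Myl4 and 1.951 for Sln. The SE fell too, to 0.543 and 0.931. The unadjusted limma p was 0.116 and 0.0461, against 0.111 and 0.092 for the brightest probe sets, and neither passed after adjustment. For untreated strain, the chamber probe sets with an unadjusted limma p under 0.05 numbered 3 without control replicate 6 or 7. With the replicate block there was 1, and in the main fit 0. The share over all probe sets was not taken for these settings. Dim signals limit Bmp10 and the second Sln probe set.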

Other observations

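Within the atrial set, the ratio of sarcolipin to Myl7 stayed within a narrow range across hearts apart from some treated controls, a pattern chosen after its values were seen and not tested. Over the hearts with Myl4 of at least 400, the signal of Sln divided by that of Myl7 ran from 0.946 to 1.463 in 5 untreated controls, from 0.9 to 1.502 in 7 untreated del337TR hearts and from 1.016 to 1.492 in 6 treated del337TR hearts. In 6 treated controls it ran from 0.327 to 1.253. Replicates 1, 4, 6 and 7 of the treated controls had 0.426, 0.42, 0.517 and 0.327, and replicates 2 and 5 had 1.253 and 1.168. The same 4 hearts had the lowest Nppa of all 28 arrays, at 2837.7, 4703.4, 4451.9 and 3877, where the other 24 lay between 7564.1 and 18293.6. Their ratio of Myl7 to Myl4 was between 0.514 and 0.748. Replicates 4, 6 and 7 had the highest such ratio of all 28 arrays, and the next was 0.701 in an untreated control. The ratio of Sln to Myl4 was 0.219, 0.301, 0.387 and 0.239 in replicates 1, 4, 6 and 7. In the same hearts as above it ran from 0.299 to 0.725 in untreated controls, from 0.382 to 0.785 in untreated del337TR and from 0.391 to 0.785 in treated del337TR. The hearts below 400 in Myl4 are left out because Myl7 or Sln was at the dim end of the array there.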
